A study of Mus musculus with 103 samples.

Results

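The RiboAmp HS input series comprised 10 Affymetrix expression arrays of one pooled mouse RNA, out of 103 arrays in the study. They were all the arrays on which Stratagene Mouse Universal Total RNA had been labelled with the Arcturus RiboAmp HS kit. There were 2 arrays at each of 5 inputs of total RNA: 50 pg, 500 pg, 5 ng, 50 ng and 500 ng. The study as a whole examined a protocol for amplifying and labelling small amounts of total RNA, called BIIB in the labels, and set commercial kits beside it. The universal RNA is a commercial pool, so every array of the series carried the same RNA, and the amount put into the kit was the only labelled difference between groups. No genotype, treatment or animal applies. The labels number the arrays of an input replicate 1 and replicate 2 and do not say whether these were separate amplifications, so p-values here reflect only how far these arrays scatter, possibly for technical reasons. Set beside this series were 10 arrays labelled with the Affymetrix two-cycle kit (biotinylated cRNA, as with RiboAmp HS), 10 with the NuGEN Ovation system (biotinylated cDNA) at the same inputs, and 4 arrays labelled from 1 ug with the Affymetrix one-cycle kit.

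RiboAmp kits copy poly(A) RNA into cDNA from a primer that carries a T7 promoter, and T7 RNA polymerase then makes many antisense RNA copies. The product of a first round can serve as template for another, which is how very small inputs give enough target, and products grow shorter toward the 3′ end with each round. Probe sets on these arrays lie mostly near the 3′ end of a transcript. Control RNAs from Escherichia coli (bioB, bioC, bioD) and phage P1 (cre) are added to the hybridisation mix after amplification, so their brightness on a scaled array is read against the labelled target. An ideal kit gives the same scaled signal of a transcript at every input, which is a slope of 0 on the logarithm of the input.

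The deposited values of the 10 arrays already had nearly the same trimmed mean. The signal values below are on a scale where the 2% trimmed mean of each array is 2501. The 18 hybridisation-control probe sets had geometric means of 335567 and 1847480 on the arrays of 50 pg (replicate 1 and replicate 2, in this order throughout), 30814 and 25822 at 500 pg, 54859 and 13612 at 5 ng, 26346 and 7481 at 50 ng, and 6645 and 8485 at 500 ng. The controls were therefore 44.7-fold and 246-fold above the geometric mean of the 500 ng arrays at 50 pg, and still 7.31-fold above it on replicate 1 of 5 ng and 3.51-fold on replicate 1 of 50 ng. Replicate 2 of 50 ng, at 0.996-fold, lay between the arrays of 500 ng. The median signal over probe sets was 1027 and 1311 at 50 pg, 619.9 and 587 at 500 pg, 751 and 551 at 5 ng, 780.4 and 449.7 at 50 ng, and 397 and 449 at 500 ng. Dim probe sets, those under a signal of 500, made up 35.6% and 34.6% of the array at 50 pg and 53.9% and 51.8% at 500 ng.

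Likeness to the one-cycle arrays, given as Pearson's r across probe sets with their mean log2 signal, was 0.691 and 0.326 at 50 pg. It lay between 0.792 and 0.867 on the arrays of the other 4 inputs, with the lower values, 0.802 and 0.792, on replicate 1 of 5 ng and of 50 ng. The ratio of 3′ to 5′ signal of the Gapdh control was 13.6 and 6.02 at 50 pg, 23.5 and 25.9 at 500 pg, 25.7 and 41.1 at 5 ng, 38.4 and 48.8 at 50 ng, and 22.2 and 27.1 at 500 ng. That of the Actb control ran between 17.6, on replicate 2 of 50 pg, and 127, on replicate 1 of 5 ng. On replicate 2 of 50 pg the 3′ signals were the lowest of the series, 35880.5 for Gapdh and 9253 for Actb. The Gapdh 5′ signal there, 5960, lay within the range of the other arrays, and the Actb 5′ signal, 527, was the lowest. On replicate 1 of 50 pg the Gapdh 5′ signal, 10011.5, was the highest. What set these ratios was not tested. A set of 3 arrays stood apart from their input's other array: replicate 2 of 50 pg, replicate 1 of 5 ng and replicate 1 of 50 ng. Replicate 1 of 50 ng was closer to both arrays of 500 pg (r = 0.900 and 0.893) than to its own replicate (0.888).

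**Figure D1:**
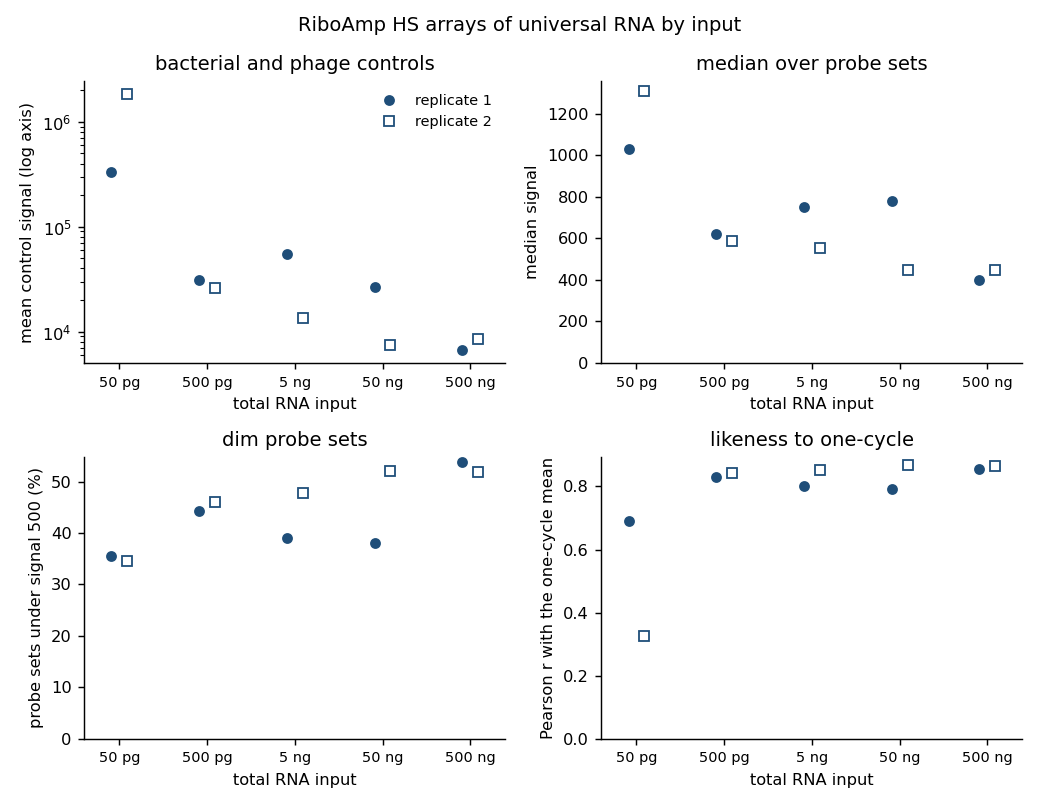
Each panel gives 1 measure for the 10 RiboAmp HS arrays against total RNA input from 50 pg to 500 ng, with circles for replicate 1 and squares for replicate 2; only the control signal is on a log axis. The control signal reaches 335567 and 1847480 at 50 pg, and replicate 1 of 5 ng and of 50 ng lies above its partner in control and median signal and below it in likeness to one-cycle.

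Against the logarithm of the input over the 10 arrays, the control signal had r = -0.827 and Spearman's rho = -0.837 (permutation test, adjusted p = 0.00642 and 0.029 over the 6 measures computed). The control signal was not among the measures planned beforehand. The median signal had r = -0.797 and rho = -0.788 (permutation test, adjusted p = 0.0172 and 0.0301), and the share of dim probe sets r = 0.739 and rho = 0.763 (permutation test, adjusted p = 0.0292 and 0.0301). Likeness to one-cycle had r = 0.628 and rho = 0.738 (permutation test, adjusted p = 0.0219 and 0.031). The Gapdh ratio had r = 0.632 and rho = 0.542 (permutation test, adjusted p = 0.0503 and 0.141), and the Actb ratio r = 0.138 and rho = -0.246 (permutation test, adjusted p = 0.739 and 0.507). Without the arrays of 50 pg none of the 6 measures passed, with r of -0.717 for the control signal and -0.557 for the Actb ratio (permutation tests, adjusted p between 0.307 and 0.798). Without the arrays of 500 ng, the control signal (r = -0.799) and the Gapdh ratio (r = 0.871) passed by r (permutation test, adjusted p = 0.0435 and 0.0194) but not by rho (adjusted p = 0.168 and 0.0637). The median signal (r = -0.670), the share of dim probe sets (0.536), likeness (0.633) and the Actb ratio (0.378) passed by neither (permutation tests, adjusted p between 0.102 and 0.861). The relations of the median signal, the dim share and likeness thus passed only with the arrays at both ends of the range present. Each of these subsets held 8 arrays, so a failed test there does not by itself show a weaker relation. The r of likeness was 0.628 with and 0.633 without the arrays of 500 ng.

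Replicates lay furthest apart at the lowest input. The median standard deviation of the 2 arrays of an input, over probe sets on the log2 scale, was 1.06 at 50 pg, 0.32 at 500 pg, 0.41 at 5 ng, 0.52 at 50 ng and 0.17 at 500 ng. Their correlation was 0.392 at 50 pg, 0.926 at 500 pg, 0.905 at 5 ng, 0.888 at 50 ng and 0.979 at 500 ng. Spread did not shrink steadily with input: it was larger at 5 ng and 50 ng than at 500 pg, the inputs at which 1 array had the brighter controls. At the same 2 inputs the two-cycle arrays had 0.15 and 0.26, and the Ovation arrays 0.25 and 0.18. At 500 pg the order was the other way, with 0.32 for RiboAmp HS against 0.57 for two-cycle and 0.63 for Ovation. After quantile normalisation of each pair these were 0.32, 0.37 and 0.63, so the gap to two-cycle depended on scaling. At 50 pg all 3 kits were between 1.04 and 1.25 before that normalisation. These are single pairs of arrays, so differences between kits in spread carry no test.

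**Figure D2:**
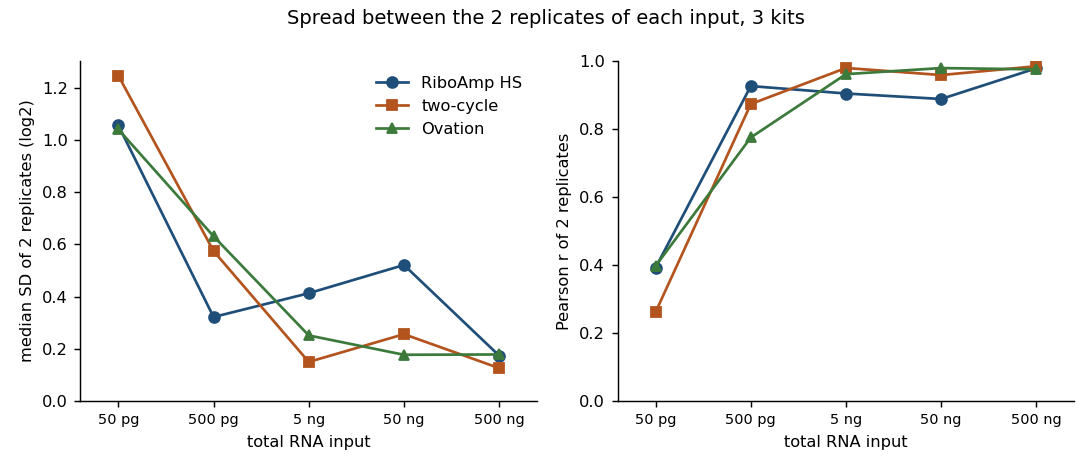
Median standard deviation (log2, left) and Pearson's r (right) of the 2 replicate arrays of each input, from 50 pg to 500 ng, for RiboAmp HS, two-cycle and Ovation. RiboAmp HS has the smallest spread of the 3 kits at 500 pg (0.32) and the largest at 5 ng (0.41) and 50 ng (0.52).

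The mean profile differed most between the lowest inputs. Between 50 pg and 500 pg the median absolute change of a probe set was 1.08 (log2, over 15326 probe sets), and 53.4% changed more than 2-fold. The 2 arrays of 50 pg had a median standard deviation of 1.06 and r = 0.392 between them. How much of this step was scatter between those arrays was not tested. The following steps were smaller, with 0.31 and 7.82% between 500 pg and 5 ng, 0.30 and 6.58% between 5 ng and 50 ng, and 0.54 and 19.5% between 50 ng and 500 ng. Without replicate 1 of 5 ng and of 50 ng, the last 3 steps had median absolute changes of 0.34, 0.37 and 0.33, so the larger last step was found only with those arrays present.

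No probe set passed the test for a slope on log10 input over all 5 inputs (limma, 0 of 15326 at an adjusted p under 0.05 with a slope of at least 0.25 either way, 0% called; a slope is the log2 change per 10-fold more RNA, and 0.25 is 2-fold over the 4 decades). At an unadjusted p under 0.05 there were 4414 probe sets, 1564 with a positive slope (10.2%) and 2850 with a negative one (18.6%), and the smallest adjusted p was 0.077. Fitted slopes were nevertheless large, and 52.3% were at least 0.25 either way, 3018 positive and 4998 negative. Quantile normalisation turned that split to 4433 positive and 2602 negative and moved the median slope of all probe sets from -0.06 to 0.08, so directions over 5 inputs are relative to that shift. With weights per input, 0.117 at 50 pg and 5.58 at 500 ng, 4071 probe sets were called, 1701 positive and 2370 negative. Leaving out replicate 2 of 500 pg gave 823 calls, 240 positive and 583 negative, leaving out replicate 2 of 50 pg gave 3, and each of the other 8 arrays left out in turn gave 0.

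Since nothing was called at equal weight, the genes described here were chosen after their values were seen, as those with the smallest unadjusted p each way. Ptprk, a receptor protein tyrosine phosphatase of cell contacts, had signals of 249 and 145 at 50 pg, 2595 and 2863 at 500 pg, 2631 and 4427 at 5 ng, 3110.2 and 5734 at 50 ng and 8180.4 and 7741 at 500 ng. Both arrays of 50 pg were far below all others, and the means of the other inputs were higher at each step. The slope was 0.99 ± 0.19 (SE; limma, adjusted p = 0.077). Stk26, a serine/threonine kinase, had 42.2 and 199 at 50 pg, 1343 and 1691 at 500 pg, 1659.8 and 1714 at 5 ng, 2253 and 2749 at 50 ng and 4203 and 3711 at 500 ng. It had the same gap between 50 pg and the rest (0.89 ± 0.17, adjusted p = 0.077). Reck, an inhibitor of matrix metalloproteinases, Pkp4, a plakophilin of cell junctions, and Casp8ap2, a caspase-8 binding protein, had slopes of 0.72 ± 0.14, 0.82 ± 0.16 and 0.75 ± 0.15 (limma, adjusted p = 0.077 for each).

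On the negative side, Alox12, an arachidonate lipoxygenase, had signals of 2127 and 2831 at 50 pg, 383 and 452 at 500 pg, 234 and 109 at 5 ng, 32.9 and 54.2 at 50 ng and 16.7 and 19.9 at 500 ng. Its unadjusted p was 1.36e-05 (limma, adjusted p = 0.077). Pitx1, a homeobox transcription factor, had 1753 and 4586 at 50 pg, 303 and 440.0 at 500 pg, 449.9 and 302 at 5 ng, 101 and 40.1 at 50 ng and 30.5 and 52.3 at 500 ng. Abca4, a lipid transporter of photoreceptors, was likewise bright at 50 pg, with 1725 and 2895, and dim at 500 ng, with 142 and 36.3. These 3 genes passed the filter only through the arrays of 50 pg, so a low signal at the other inputs was part of how they came to be tested. Signals below the 125 added before the logarithm are given no order. Stub1, a co-chaperone and ubiquitin ligase, was bright and spanned the whole range, with 21047 and 16199.5 at 50 pg, 9159.5 and 7496 at 500 pg, 7875 and 7851 at 5 ng, 4851 and 2713 at 50 ng and 1411 and 1981 at 500 ng. Its groups were ordered at every step but that between 500 pg and 5 ng, where they overlapped. The slope was -0.79 ± 0.13 over 5 inputs (adjusted p = 0.077) and -0.78 ± 0.14 without 50 pg (adjusted p = 0.158). The probe set of Stub1, like others below whose name ends in x_at or s_at, can match transcripts of other genes. Among these others were the probe sets of Rpl41, Eif4ebp1, Erdr1, Stx5a, Mib2, Commd9 and Zfp654, and that called for Banf1.

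Without 50 pg, over 4 inputs and 8 arrays, again none of 11943 probe sets passed (limma, 0% called), with 2305 at an unadjusted p under 0.05 (1004 positive, 8.41%, and 1301 negative, 10.9%) and a smallest adjusted p of 0.158. Slopes of at least 0.25 either way made up 33.8% of probe sets, 1802 positive and 2229 negative, or 1886 and 1545 after quantile normalisation. Leaving out replicate 1 of 50 ng alone gave 1449 calls (625 positive and 824 negative), and leaving out any other of the 8 arrays gave 0. Smarca5, the ATPase of ISWI chromatin remodellers, had the smallest unadjusted p and is again named after its values were seen, with 8728 and 5949 at 50 pg, 3751 and 4949.8 at 500 pg, 6224 and 5237 at 5 ng, 8976 and 9039 at 50 ng and 17195 and 15236 at 500 ng. Its means were higher at each step from 500 pg (0.63 ± 0.10, adjusted p = 0.158). At 50 pg both arrays lay within the range of those of 5 ng and 50 ng. Fundc1, a mitophagy receptor, had 2589 and 5779 at 50 pg, 1738 and 2361 at 500 pg, 2224 and 4247 at 5 ng, 4019 and 6136 at 50 ng and 8326 and 10843 at 500 ng. It was also lower at 500 pg than at 50 pg (0.72 ± 0.13, adjusted p = 0.158). Myh9, a nonmuscle myosin heavy chain, had 89538 and 15103 at 50 pg, 45849.9 and 38102 at 500 pg, 56265 and 28386 at 5 ng, 16298 and 12085 at 50 ng and 8589 and 9307 at 500 ng. Its slope was -0.81 ± 0.14 (adjusted p = 0.158).

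With arrays at equal weight, slopes over 4 inputs were called once the arrays that stood apart were left out. On the 6 arrays from 500 pg to 500 ng without replicate 1 of 5 ng and of 50 ng, a choice made after the arrays were compared, limma called 2984 of 11355 probe sets (26.3%), 1404 positive (12.4%) and 1580 negative (13.9%). Quantile normalisation of the same arrays called 2326 of 11398 (20.4%), 1249 positive (11%) and 1077 negative (9.45%). Leaving out replicate 1 or replicate 2 of 500 ng as well reduced the calls to 162 and 609, of which 153 and 594 were among the 2984. Leaving out replicate 1 or 2 of 500 pg gave 1864 and 3658, and leaving out the single array of 5 ng or of 50 ng gave 2944 and 2412. With 5 ng and 50 ng represented by 1 array each, these calls lean on the 2 arrays of 500 ng. The arrays were left out because they differed from their partners, and the median SE of a slope went from 0.143 to 0.094. The adjusted p-values on the 6 arrays do not allow for that choice and serve only to describe these arrays. With all 8 arrays nothing was called. In the next paragraphs a gene is said to have risen or fallen with input where it was called on these 6 arrays, and genes described in full are given with their signals on all 10.

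Among the genes with the largest positive slopes, Etfa, the alpha subunit of the electron transfer flavoprotein, had 804 and 8263 at 50 pg, 2499 and 4413 at 500 pg, 3089 and 5626 at 5 ng, 2682 and 7807 at 50 ng and 20643 and 20577 at 500 ng. Both arrays of 500 ng exceeded every array of a smaller input. The gene rose by 0.84 ± 0.11 log2 per 10-fold input (SE, limma, adjusted p = 0.00552; over all 8 arrays 0.79 ± 0.21, adjusted p = 0.167). Bmi1, a Polycomb repressor, had 2669.6 and 557 at 50 pg, 4014 and 5160.1 at 500 pg, 3039 and 5392 at 5 ng, 2604 and 10458 at 50 ng and 20354 and 23341 at 500 ng. It rose by 0.75 ± 0.09 (adjusted p = 0.00552). Replicate 1 of 50 ng was no brighter than the arrays of 500 pg and 5 ng for both genes, apart from replicate 1 of 500 pg for Etfa. Psmb7, a catalytic subunit of the proteasome, had the largest slope, 1.02 ± 0.19 (adjusted p = 0.00883). Its signals were 84.9 and 3656 at 50 pg, 284 and 1858 at 500 pg, 469.8 and 2265 at 5 ng, 654 and 3579.5 at 50 ng and 6333 and 9403 at 500 ng. Its replicates differed several-fold at each input below 500 ng.

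Utp18, which acts in ribosome biogenesis, rose by 0.93 ± 0.12 (adjusted p = 0.00552), with 309 and 4373 at 50 pg, 1244 and 1845 at 500 pg, 1638 and 1683 at 5 ng, 1689 and 6423 at 50 ng and 11197 and 8934 at 500 ng. The other genes of this group were Stxbp3, a syntaxin-binding protein (0.95 ± 0.11), the ubiquitin ligases Rnf103 (0.79 ± 0.12) and Rnf13 (0.75 ± 0.09), the polarity scaffold Lin7c (0.77 ± 0.09), the phosphatase Bpnt2 (0.77 ± 0.09) and the taurine transporter Slc6a6 (0.77 ± 0.20), with adjusted p between 0.00552 and 0.0221 in limma. Slc6a6 was dim, with 974 and 155 at 50 pg, 316 and 51.7 at 500 pg, 967 and 45.9 at 5 ng, 51.6 and 273 at 50 ng and 1033 and 1360.3 at 500 ng, and its arrays overlapped across inputs. The 50 pg arrays of these genes took no common place. Bpnt2 had 3129 and 2909 there, above 500 pg, while Lin7c had 1212 and 297.

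The 10 genes with the largest negative slopes included Rpl41, Rps15 and Eif4ebp1. Rpl41, a protein of the large ribosomal subunit, had 152187 and 41980.1 at 50 pg, 437137 and 327914 at 500 pg, 591602 and 369950.0 at 5 ng, 176097 and 186114 at 50 ng and 41541 and 28312 at 500 ng. The arrays of 500 pg and 5 ng were all above those of 50 ng, which were above those of 500 ng. The gene fell by 1.14 log2 per 10-fold input (SE 0.17, limma, adjusted p = 0.00618). At 50 pg it was 152187 and 41980, back toward the level of the larger inputs, and over 5 inputs its slope was -0.35 ± 0.29 (adjusted p = 0.42). Rps15, of the small subunit, had 126996 and 64985 at 50 pg, 104153 and 63363 at 500 pg, 153085 and 71460.3 at 5 ng, 87426 and 40438 at 50 ng and 15528 and 15519 at 500 ng. Its slope was -0.79 ± 0.12 (adjusted p = 0.00607). Eif4ebp1, a repressor that binds the cap-binding factor eIF4E, had 56082 and 14643 at 50 pg, 80220.3 and 47899.7 at 500 pg, 125771 and 47508 at 5 ng, 135321 and 27881 at 50 ng and 9397 and 13321 at 500 ng. Its slope was -0.82 ± 0.11 (adjusted p = 0.00591). Replicate 1 of 5 ng and of 50 ng, left out of these slopes, carried the highest Eif4ebp1 signals.

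Nfic, a transcription factor of the nuclear factor I family, had 2219 and 265 at 50 pg, 5761 and 2309 at 500 pg, 5994 and 3114 at 5 ng, 6109 and 1268 at 50 ng and 475 and 415 at 500 ng. It fell on the 6 arrays (-0.93 ± 0.14, adjusted p = 0.00618). Krt19, a keratin of simple epithelia, had 8932 and 3038 at 50 pg, 13252 and 7995 at 500 pg, 15494 and 11216 at 5 ng, 9296 and 4913 at 50 ng and 1504 and 2349 at 500 ng. It fell as well (-0.81 ± 0.14, adjusted p = 0.00666). The rest of the group were Il17rc, an interleukin-17 receptor subunit (-0.84 ± 0.17), Gps2, a corepressor subunit (-0.83 ± 0.10), Erdr1 (-0.80 ± 0.15), the Golgi syntaxin Stx5a (-0.79 ± 0.10) and Mib2, a ubiquitin ligase of Notch signalling (-0.78 ± 0.15), with adjusted p between 0.00552 and 0.0105 in limma. Over all 5 inputs the slopes of Nfic and Stx5a were -0.19 ± 0.29 and -0.14 ± 0.34 (adjusted p = 0.682 and 0.796) and turned positive under some alternatives.

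**Figure D3:**
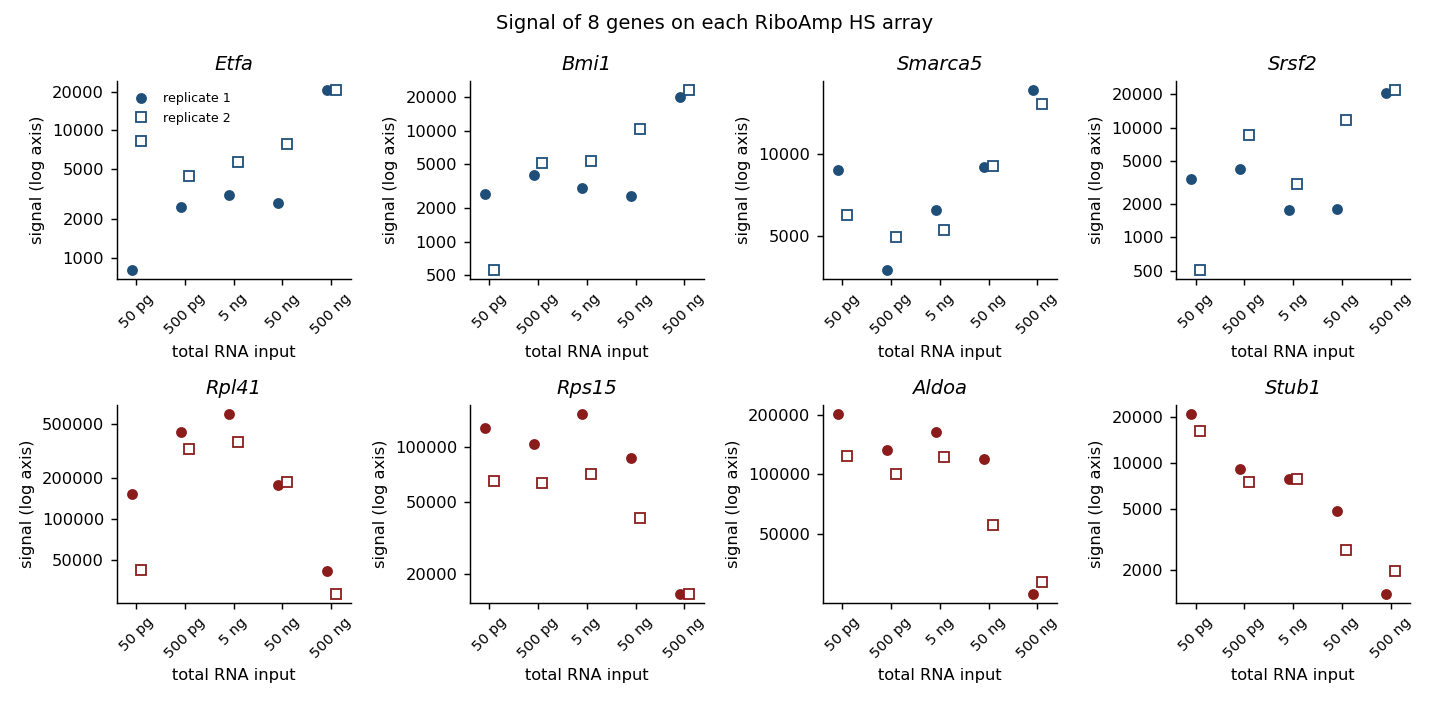
Signal (log axis) of 8 genes on each RiboAmp HS array against input from 50 pg to 500 ng, with circles for replicate 1 and squares for replicate 2; the upper row had positive and the lower row negative slopes on the 6 arrays. The 500 ng arrays stand above the 500 pg arrays in all 4 upper panels and below them in all 4 lower panels, while the 50 pg arrays take no common place.

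No departure of the 5 input means from a straight line was called by the test of the 3 higher terms (limma, 0 of 15326 probe sets, 0% called, with 1104 at an unadjusted p under 0.05 and a smallest adjusted p of 0.589). This does not show that the means lay on a line, since the spread between replicates, against which they were tested, was largest at 50 pg. Leaving out replicate 1 of 50 pg, so that the lowest input was its replicate 2 alone, gave 4657 calls.

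The hybridisation-control signal was also used as a term, an alternative added after the arrays were seen to stand apart by that signal. With the control signal of each array as the only term, 6942 of 15326 probe sets over 10 arrays and 3580 of 11943 over 8 arrays had an adjusted p under 0.05 (limma). With input in the model too, the control term had 4076 and 1634, while the input term had 0 and 0 at an adjusted p under 0.05 (1105 and 1406 at an unadjusted p under 0.05). Input and controls moved together, with r = -0.827 over 10 arrays, -0.717 over 8 and -0.944 over the 6, so on the 6 arrays they cannot be told apart. The overlap limits the fits on 10 and 8 arrays too. The control signal was read on the same scaled arrays and chosen because some stood apart by it. A large count for it was therefore likely from the start, and the counts do not rank the controls above input.

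Most cytosolic ribosomal genes fell with input on the 6 arrays under trimmed-mean scaling, but few did after quantile normalisation. Of 79 ribosomal protein genes listed, 43 had a probe set with a single symbol, and all were tested. Over 8 arrays their median slope was -0.35, beside -0.03 for all probe sets, and 41 of 43 were negative, 27 of them at an unadjusted p under 0.05 and none positive at that level; none was called. On the 6 arrays 31 of 43 were called negative and none positive, beside 13.9% and 12.4% of all probe sets. Quantile normalisation brought the median over 8 arrays to -0.12, and on the 6 arrays the median was -0.10 with 6 of 43 called negative and none positive, beside 9.45% and 11% of all probe sets. The median signal of the list was 154213 and 33879.5 at 50 pg, 181601 and 153927 at 500 pg, 217818 and 146876 at 5 ng, 135198 and 103997 at 50 ng, and 64493 and 73426 at 500 ng. Rplp0, the stalk protein P0, had 135836 and 19670.0 at 50 pg, 181601 and 130364 at 500 pg, 179581 and 121090.0 at 5 ng, 134805 and 50754 at 50 ng and 31734 and 34409 at 500 ng. It fell on the 6 arrays (-0.77 ± 0.09, adjusted p = 0.00552). Rpl4 and Rpl35, of the large subunit, had -0.57 ± 0.10 and -0.63 ± 0.09 (adjusted p = 0.00666 and 0.00552). Probe sets of ribosomal protein genes can also match processed pseudogenes.

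The mitochondrial lists had more negative than positive calls on the 6 arrays. Of 71 oxidative phosphorylation genes, 70 were tested over 8 arrays, with a median slope of -0.17 (-0.09 after quantile normalisation); 18 were negative and 2 positive at an unadjusted p under 0.05. On the 6 arrays 23 of 71 fell and 2 rose, beside 13.9% and 12.4% of all probe sets, or 13 and 4 after quantile normalisation, beside 9.45% and 11%. Ndufs7, a complex I subunit, had 64103 and 32003 at 50 pg, 67693 and 46189 at 500 pg, 107059 and 31764 at 5 ng, 124282 and 21661 at 50 ng and 18681 and 15395 at 500 ng. Its slope was -0.57 ± 0.09 (adjusted p = 0.00645). Ndufs4, also of complex I, went the other way (0.52 ± 0.09, adjusted p = 0.00735). Its signals were 3759 and 800.4 at 50 pg, 2413 and 3645 at 500 pg, 3121 and 4199 at 5 ng, 3274 and 4798 at 50 ng and 8991 and 9831 at 500 ng. Of 74 mitochondrial ribosomal protein genes, 15 fell and 5 rose on the 6 arrays, or 16 and 4 after quantile normalisation, with Mrpl12 (-0.70 ± 0.08) and Mrpl42 (0.36 ± 0.10) as examples (limma, adjusted p = 0.00552 and 0.0244). Over 8 arrays their median was -0.12, or -0.15 after quantile normalisation.

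All 15 glycolysis genes tested had a negative slope on the 6 arrays and 4 of them fell: Aldoa, Slc2a1, Pfkl and Pgk1. Among all probe sets 5984 of 11355 were negative there and 13.9% were called negative. After quantile normalisation 13 of the 15 were negative and 3 were called. Beside these, 5470 of 11398 were negative and 9.45% called negative among all probe sets. Aldoa, which encodes aldolase A, had 201855 and 123330.0 at 50 pg, 132208 and 99779 at 500 pg, 162658 and 122359 at 5 ng, 118711 and 55040.3 at 50 ng and 24838 and 28433 at 500 ng. Its slope was -0.73 ± 0.11 (adjusted p = 0.00631). Over 8 arrays 14 of the 15 were negative, beside 6435 of 11943 among all probe sets, with a median of -0.15, and -0.14 after quantile normalisation. Over 5 inputs 9 of the 15 were positive, with a median of 0.09.

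The translation and splicing lists had calls each way. Of 35 translation factors, 6 rose and 4 fell on the 6 arrays, or 8 and 3 after quantile normalisation, with a median slope of -0.08 beside -0.02 for all probe sets. Eif4a2, a helicase of the initiation complex, had 3994 and 3273 at 50 pg, 4452 and 8113 at 500 pg, 2848 and 7674 at 5 ng, 2076 and 12319 at 50 ng and 23542 and 22320.3 at 500 ng. It rose by 0.64 ± 0.10 (adjusted p = 0.00653), and Eif4b, which stimulates that helicase, had 0.52 ± 0.09 (adjusted p = 0.00657). Those that fell were Eef1d, Eif3c, Eif2b2 and Eif3l, with slopes between -0.34 and -0.31. Of 50 splicing factors and hnRNPs, 6 rose and 5 fell, or 3 and 3 after quantile normalisation, with a median of 0.07. Under trimmed-mean scaling the counts of both lists lay near the 12.4% positive and 13.9% negative among all probe sets. After quantile normalisation these shares were 11% and 9.45%, and the 8 of 35 translation factors that rose lay above theirs. Since the counts are small and moved with scaling, nothing is read from them about the lists as groups. Srsf2, an SR protein, had 3381 and 506 at 50 pg, 4189.7 and 8538 at 500 pg, 1788 and 3070.5 at 5 ng, 1812 and 11764 at 50 ng and 20634 and 21948 at 500 ng. Its slope was 0.67 ± 0.18 (adjusted p = 0.0246). Hnrnph1 had 4688 and 15068 at 50 pg, 8488 and 13276 at 500 pg, 5606 and 10947 at 5 ng, 2589 and 19434 at 50 ng and 27908 and 28339 at 500 ng. It rose too (0.48 ± 0.10, adjusted p = 0.00997). For both genes replicate 1 of 50 ng was far below its partner. Prpf6, a protein of the tri-snRNP, fell (-0.73 ± 0.11, adjusted p = 0.00607). Its signals were 35014 and 26708 at 50 pg, 17439 and 8888 at 500 pg, 21537 and 5878 at 5 ng, 11553 and 4025 at 50 ng and 2495 and 2592 at 500 ng.

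Of 36 proteasome genes, Psmb7, Psma1 and Psma7 rose and Psmd3, of the regulatory particle, fell on the 6 arrays, with 3 and 1 called after quantile normalisation too. The replication and mitosis list had 3 rises, among them the mitotic kinases Bub1 (0.48 ± 0.08) and Aurkb (0.50 ± 0.08), and 2 falls among 40 genes (limma, adjusted p = 0.00666 and 0.00657), and again 3 and 2 after quantile normalisation. The immediate early and heat shock list had 5 rises (Klf6, Klf4, Egr1, Hspa1b and Dnajb1) and 4 falls (Hspb1, Ier2, Jund and Hspa8) among 27 genes, or 4 and 3 after quantile normalisation. The cholesterol synthesis list had 5 rises and 3 falls among 17, or 3 and 2. Beside 12.4% positive and 13.9% negative among all probe sets, or 11% and 9.45% after quantile normalisation, nothing is read from these small counts about the lists. Egr1, an immediate early transcription factor, had 20548 and 9983 at 50 pg, 26309 and 37559 at 500 pg, 18284 and 44548 at 5 ng, 13446 and 52972 at 50 ng and 56397 and 63211 at 500 ng. It rose by a small slope (0.30 ± 0.09, adjusted p = 0.029). Hspb1, a small heat shock protein, had 4089.8 and 6611 at 50 pg, 6378 and 5146 at 500 pg, 5517 and 5544 at 5 ng, 5754 and 2711 at 50 ng and 1115 and 1750.3 at 500 ng. It fell (-0.67 ± 0.11, adjusted p = 0.00645). Of 11 genes commonly used as references, Rplp0, Pgk1 and Actb fell and none rose, and after quantile normalisation 1 was called negative. Actb had 60731 and 4349 at 50 pg, 76378 and 55985 at 500 pg, 73794 and 43998 at 5 ng, 60964 and 36928 at 50 ng and 37786 and 36801 at 500 ng. Its slope was -0.27 ± 0.09 on the 6 arrays (adjusted p = 0.0476) and 0.19 ± 0.24 over 5 inputs (adjusted p = 0.596).

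Liver, erythroid, spermatid, brain, striated muscle and T cell genes, dim in this RNA, had their highest list medians on replicate 2 of 50 pg. The B cell and myeloid lists did not: their highest medians, 750.3 and 2637, were on replicate 1 of 50 ng, beside 593 and 803 on replicate 2 of 50 pg. Without a filter on signal, all 21 liver genes had a negative slope over 5 inputs (median -0.37), as did 10 of 11 erythroid (-0.52), 19 of 19 spermatid (-0.33) and 16 of 17 brain genes (-0.34), beside -0.14 for all probe sets and -0.37 for the dimmest of 10 equal groups of probe sets by one-cycle level. Negative were 19 of 24 striated muscle (-0.27), 12 of 13 T cell (-0.19), 8 of 13 B cell (-0.10) and 9 of 18 myeloid genes (0.02), beside 14956 of 22626 among all. With the filter 13 liver, 7 erythroid, 8 spermatid and 8 brain genes were tested, and 1, 2, 1 and 4 once 50 pg was left out. Without replicate 2 of 50 pg and without a filter the medians were -0.20, -0.36, -0.20 and -0.12, beside -0.09 for all, and with quantile normalisation and no filter -0.23, -0.36, -0.15 and -0.16, beside -0.01. The liver list had a median signal of 301 and 2985 at 50 pg and of 103 and 97.0 at 500 ng. Apoa1, of plasma lipoproteins, had 302 and 5291 at 50 pg, 63.9 and 141 at 500 pg, 106 and 43.4 at 5 ng, 86.2 and 87.5 at 50 ng and 22 and 97 at 500 ng. Ldhc, the lactate dehydrogenase of the testis, had 628 and 6112 at 50 pg, 18 and 25.1 at 500 pg, 17.7 and 12.9 at 5 ng, 8.6 and 36.2 at 50 ng and 32 and 5 at 500 ng. The high value stood on replicate 2 of 50 pg for both. Alas2, the erythroid enzyme that begins heme synthesis, was high on both arrays of 50 pg, with 1535 and 3959.9 at 50 pg, 54.2 and 34.7 at 500 pg, 30.2 and 20.8 at 5 ng, 85.5 and 21.1 at 50 ng and 16.6 and 13.8 at 500 ng. None of these was called.

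Slope followed the level of a probe set when 50 pg was included. Probe sets were put in 10 equal groups by their signal on the one-cycle arrays, which no slope used. The median slope over 5 inputs ran from -0.37 in the dimmest group to 0.15 in the brightest, over 22626 probe sets with no filter (r = 0.556 across probe sets, which are not independent). Over the 4 inputs without 50 pg it ran from -0.11 to -0.04, with its highest value, 0.04, in group 9 (r = 0.155). On the arrays themselves, the median signal of the dimmest group was 184 and 636 at 50 pg, 64.7 and 56.1 at 500 pg, 96.2 and 53.9 at 5 ng, 92.8 and 33.8 at 50 ng, and 25.3 and 33.1 at 500 ng. That of the brightest group was 10326 and 5722 at 50 pg and between 11161 and 15323 on the other 8 arrays, with the lowest of these on replicate 1 of 50 ng. The 3 arrays that stood apart had a brighter dim group and a dimmer bright group than their partners.

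**Figure D4:**
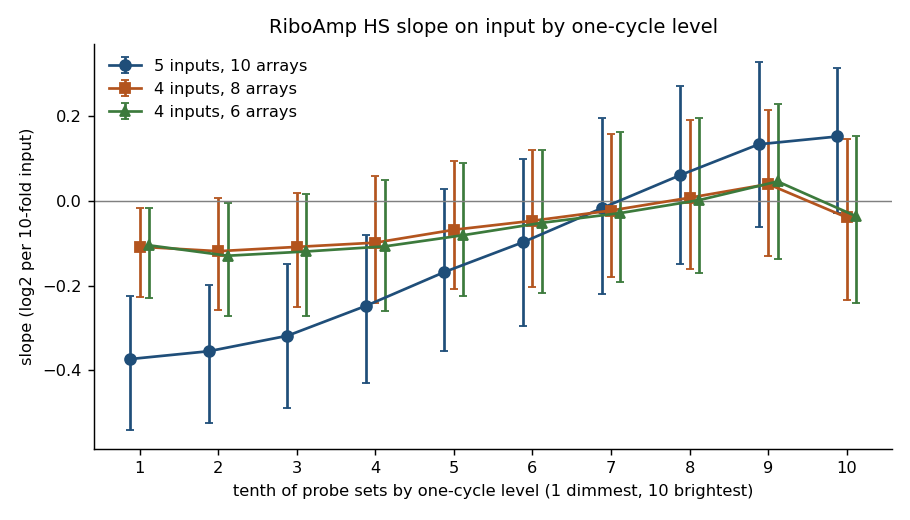
Median slope (log2 per 10-fold input) of probe sets in 10 equal groups by one-cycle signal, with bars from the first to the last quartile, for 5 inputs, for 4 inputs and for the 6 arrays. With 50 pg the medians climb from -0.37 to 0.15, and without it they stay between -0.13 and 0.05.

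Set against the two-cycle kit, few slope differences were called, which does not show that the slopes agreed. RiboAmp HS by itself had 0 of 11943 slopes called over the same inputs. Over the 4 inputs from 500 pg, limma called a slope difference for 8 of 12802 probe sets (0.0625%), 2 more positive with RiboAmp HS (0.0156%) and 6 more negative (0.0469%). Stub1 had 9159.5 and 7496 at 500 pg, 7875 and 7851 at 5 ng, 4851 and 2713 at 50 ng and 1411 and 1981 at 500 ng with RiboAmp HS, against 5379 and 6663 at 500 pg, 5679.6 and 6231 at 5 ng, 7304 and 6735 at 50 ng and 8432 and 8143 at 500 ng with two-cycle. The slopes were -0.78 and 0.16 and differed by -0.94 ± 0.15 (limma, adjusted p = 0.0327). Fis1, a protein of mitochondrial fission, had 3093 and 3481 at 500 pg, 2274 and 2856 at 5 ng, 1529 and 1195 at 50 ng and 1097 and 1260.4 at 500 ng with RiboAmp HS, against 7741 and 5816 at 500 pg, 7463 and 6891 at 5 ng, 7657 and 8922 at 50 ng and 10532 and 10299.8 at 500 ng with two-cycle. The difference was -0.71 ± 0.11 (adjusted p = 0.0327). In both genes the arrays of 500 ng were the brightest of the two-cycle arrays, and for Stub1 they were the dimmest of RiboAmp HS. After quantile normalisation the differences were -0.83 for Stub1 and -0.65 for Fis1, neither called (limma, adjusted p = 0.114 and 0.0583). Neither was called over all 5 inputs (limma, adjusted p = 0.0657 and 0.319).

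The other 6 calls lay on probe sets that were not the brightest of their gene or had no single symbol, and are named here after their values were seen: Gtf2h4 (-1.12), Exosc4 (-0.98), Banf1 (-0.72), Pnn (0.79), Jade1 (0.79) and 1 probe set without a single symbol (-0.84). The brightest probe sets of those 5 genes differed by -0.30, -0.85, -0.25, 0.30 and 0.37, none called (limma, adjusted p between 0.281 and 0.556). Jade1, of a histone acetyltransferase complex, had 308 and 229 at 500 pg, 633 and 397 at 5 ng, 914 and 792 at 50 ng and 1276 and 1031 at 500 ng with RiboAmp HS, against 1696 and 1477 at 500 pg, 1356 and 1378 at 5 ng, 934 and 1304 at 50 ng and 899 and 1049.8 at 500 ng with two-cycle. The count depended on weights and on single arrays. With weights per input it was 2744, 1299 more positive and 1445 more negative. Of the RiboAmp HS arrays, leaving out either array of 500 ng or replicate 1 of 500 pg gave 0, replicate 2 of 50 ng 2, replicate 2 of 5 ng 4, replicate 1 of 5 ng 15, replicate 2 of 500 pg 67 and replicate 1 of 50 ng 259. Leaving out any 1 of the two-cycle arrays gave between 0 and 3. It was 957 without replicate 1 of both 5 ng and 50 ng, and 1 after quantile normalisation. The two-cycle series by itself, on 8 arrays of its own, had 0 of 13188 slopes called (limma, 1617 at an unadjusted p under 0.05) and a median absolute slope of 0.09, against 0.18 with RiboAmp HS. The cytosolic ribosomal genes had a median difference of -0.28, or -0.06 after quantile normalisation.

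Set against Ovation, with the same 8 RiboAmp HS arrays, 4479 of 12095 slopes differed (limma, 37% called), 1060 more positive with RiboAmp HS (8.76%) and 3419 more negative (28.3%). After quantile normalisation 1381 were more positive and 2211 more negative, and the median difference of all probe sets was -0.11, beside -0.32 before it. Leaving out any 1 Ovation array gave between 4025 and 4725 calls. The Ovation series by itself had 3585 positive and 1116 negative calls among 11413 probe sets (41.2%). In all 10 genes named here the Ovation slope was the larger in size. Commd9, of the COMMD trafficking proteins, had 7408 and 2997 at 500 pg, 9680.4 and 3898 at 5 ng, 9524 and 2589.6 at 50 ng and 1804 and 1465 at 500 ng with RiboAmp HS, against 118 and 31.6 at 500 pg, 1321 and 1973 at 5 ng, 7696 and 8999 at 50 ng and 12972 and 16838 at 500 ng with Ovation. The difference was -2.57 ± 0.34 (adjusted p = 1.82e-04). Mrpl12, of the mitochondrial ribosome, had 7889 and 6574 at 500 pg, 12052 and 5684 at 5 ng, 4929 and 3097 at 50 ng and 1637 and 1624 at 500 ng with RiboAmp HS, against 70.9 and 49.5 at 500 pg, 3278 and 3144 at 5 ng, 7687 and 8130.1 at 50 ng and 9527 and 8373 at 500 ng with Ovation. Its slopes differed by -2.54 ± 0.37 (adjusted p = 2.67e-04). At 500 pg both genes were dim with Ovation and bright with RiboAmp HS, and at 500 ng the order was reversed.

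Stx5a, Cuedc2 and Ndufs7 differed in the same direction, by -2.36 ± 0.35, -2.28 ± 0.39 and -2.26 ± 0.39 (limma, adjusted p between 2.89e-04 and 6.02e-04). In the other direction, Sec23a, a coat protein of vesicles leaving the endoplasmic reticulum, had 1383 and 3210.2 at 500 pg, 1872 and 2002 at 5 ng, 2025 and 3684 at 50 ng and 8507 and 6176 at 500 ng with RiboAmp HS, against 34148 and 34592 at 500 pg, 22542 and 18852 at 5 ng, 9374 and 8449.5 at 50 ng and 4667 and 3238 at 500 ng with Ovation. Its slopes differed by 1.61 ± 0.22 (adjusted p = 2.00e-04). The acetyltransferase Kat6b, Lin7c and the zinc finger genes Zfp654 and Zfp280c differed by 1.62 ± 0.29, 1.69 ± 0.31, 1.86 ± 0.31 and 1.57 ± 0.23 (limma, adjusted p between 2.89e-04 and 8.14e-04). By list, RiboAmp HS was the more negative for 45 of 71 oxidative phosphorylation genes, 45 of 74 mitochondrial ribosomal, 22 of 43 cytosolic ribosomal, 18 of 36 proteasome and 10 of 15 glycolysis genes, with none more positive, and medians between -0.59 and -0.86. Among all probe sets 28.3% were more negative and 8.76% more positive, with a median difference of -0.32. Quantile normalisation gave 44, 31, 22, 14 and 7 more negative, beside 2211 of 12231 among all probe sets. Splicing factors were called both ways (7 more positive and 9 more negative of 50), as were immediate early and heat shock genes (6 and 6 of 28). The shares among all probe sets were the same 8.76% and 28.3%.

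**Figure D5:**
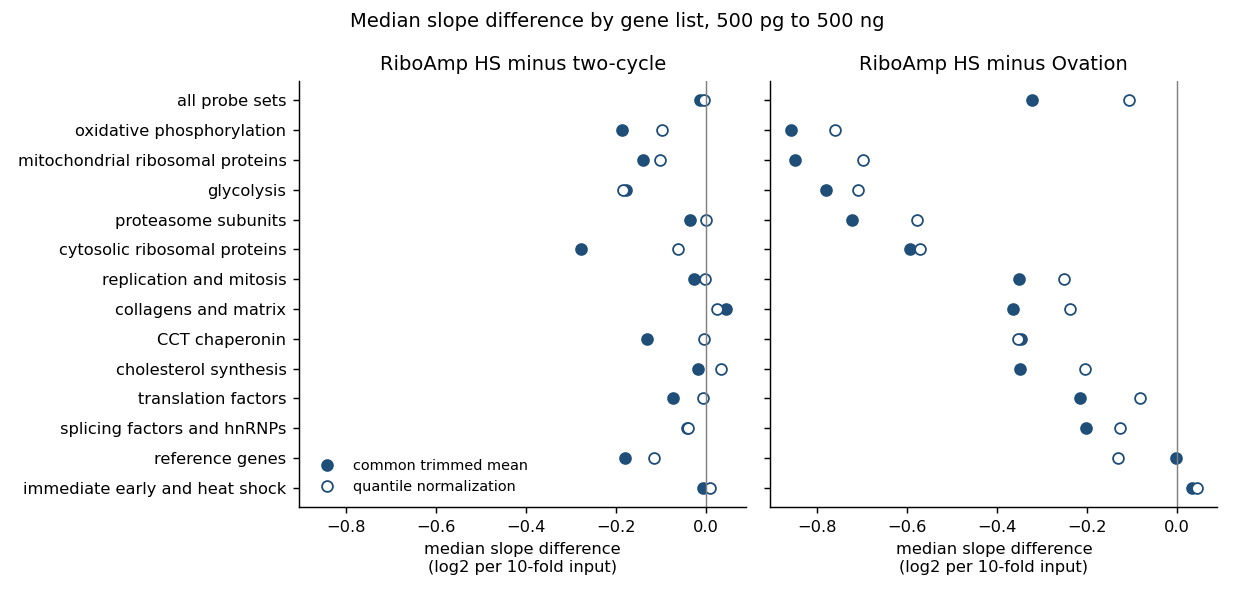
Median slope difference (log2 per 10-fold input, 500 pg to 500 ng) of all probe sets and of 13 gene lists, RiboAmp HS minus two-cycle on the left and RiboAmp HS minus Ovation on the right, with filled circles for the common trimmed mean and open circles for quantile normalisation. Against two-cycle the list medians stay between -0.28 and 0.05, and against Ovation the oxidative phosphorylation, mitochondrial ribosomal and glycolysis lists reach -0.78 to -0.86.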

How the data were processed

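Total RNA was amplified, labelled with biotin and hybridised to Affymetrix mouse arrays of 22690 probe sets. The authors deposited one intensity per probe set and array, computed with MAS5 per the submitters' processing notes; its version and settings are not given in the sources used here. Deposited arrays had trimmed means between 2500.23 and 2502.45 and were scaled to 2501. The 64 control probe sets were left out. Of all probe sets, 20393 had 1 gene symbol, 691 several and 1606 none, and 20364 of the 20393 matched RefSeq. Values were tested as log2(signal + 125), which understates changes of dim probe sets, after dropping probe sets with a mean signal under 500 over the arrays of the fit. Slopes, the departure from a line and kit slope differences were fitted with limma 3.58.1 (R 4.3.3) across all probe sets with Benjamini-Hochberg adjustment; array measures used 100000 permutations, two-sided. With 2 arrays per input, the number of arrays limits the precision.

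The rule for named genes took the largest slopes or differences each way among calls, with a gene represented by its brightest probe set and left out if another was called the opposite way; for slopes, the arrays of the end inputs could not overlap. Where nothing was called, genes with the smallest p, or called on the 6 arrays, were named instead. The members and lists were chosen with earlier results of these data known. Deviations of same-numbered replicates correlated between -0.115 and 0.335 over 10 pairs of inputs, highest between 5 ng and 50 ng, with 2 over 0.1; since not every pair was, numbers were not taken to pair arrays. Scripts were tested on simulated data. Alternatives covered scaling, pseudocount, filter, array weights and left-out arrays.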

Additional observations from a re-analysis of the deposited data

Results flagged for a closer look

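The slope on input differed between RiboAmp HS and two-cycle, by the interaction term in limma, for 8 probe sets. The differences named were -0.94 for Stub1 and -0.71 for Fis1, neither called after quantile normalisation. Between RiboAmp HS and Ovation it differed for 4479 probe sets. The largest positive differences were 1.86 for Zfp654, 1.69 for Lin7c, 1.62 for Kat6b, 1.61 for Sec23a and 1.57 for Zfp280c. The largest negative ones were -2.57 for Commd9, -2.54 for Mrpl12, -2.36 for Stx5a, -2.28 for Cuedc2 and -2.26 for Ndufs7. The kit and the hybridisation-control signal of each series differed together, with 30814 and 25822 at 500 pg and 6645 and 8485 at 500 ng for RiboAmp HS. For two-cycle these were 19471 and 12283 at 500 pg and 6465 and 6921 at 500 ng. For Ovation the corresponding values were 112796 and 183698, and 30769.9 and 36794. Their part in the slope differences was not tested.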

How the results depend on the processing

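Counts of calls, positive and negative in brackets, moved as follows (limma; the causes were not tested). For the slope over 5 inputs (0 called), weights per input gave 4071 (1701, 2370), a pseudocount of 1% gave 1, a trended and robust prior gave 1, and leaving out 1 array gave 0 to 823. Over 4 inputs (0), weights gave 3717 (1674, 2043), leaving out 1 array 0 to 1449, and leaving out replicate 1 of 5 ng and of 50 ng 2984. For the departure from a line (0), weights gave 1 and leaving out 1 array 0 to 4657. The difference from two-cycle (8) became 1 with quantile normalisation, 5 with a pseudocount of 20%, 0 without a filter, 2744 with weights (1299, 1445), 1 over 5 inputs, 957 without both arrays (372, 585) and 0 to 259 without 1 RiboAmp HS array. That from Ovation (4479) became 1709 over 5 inputs (347, 1362) and 3122 to 4910 without 1 RiboAmp HS array; the arrays of the other kits were left out as a check added after seeing the data. A replicate block gave 0, 0, 0, 9 and 4476 for these 5 results; the numbers do not pair the arrays. Without 50 pg the array-level r became -0.557 for the Actb ratio, 0.499 for dim probe sets, -0.560 for the median, 0.314 for likeness to one-cycle and -0.717 for the controls. Without 500 ng they were 0.871 for the Gapdh ratio, 0.536 for dim probe sets, -0.670 for the median and 0.633 for likeness, and without replicate 1 of 5 ng and of 50 ng likeness had 0.637 (permutation test, adjusted p = 0.0606), while its rho of 0.909 passed (adjusted p = 0.0051). Over 5 inputs, the slope of Nfic turned to 0.015 with quantile normalisation and ran from -0.57 to 0.024 without 1 array, above 0 without either array of 500 ng. That of Stx5a ran from -0.69 to 0.054, above 0 without replicate 1 of 50 pg or either array of 500 ng. Of the other values of single genes and lists under alternatives, 1284 kept direction and call, 151 gained a call, 80 moved, and 0 lost one. Dim probe sets bear the noise floor of each array, and no detection call was used.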
